A study of Xenopus laevis with 9 samples.

Results

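The dorsal and ventral sides of the frog head were compared by setting anterior dorsal tissue of Xenopus laevis, the African clawed frog, against the ventral tissue that carries the cement gland. Every probe set of the array other than the controls was considered, which gave 15491 of the 15611 probe sets. The comparison used 6 of the 9 arrays of the series, 3 for each tissue, and the other 3 arrays hold primary mouth tissue, the site of the future mouth opening, which lies between these pieces. All samples were dissected at stage 26, a tailbud stage, from embryos for which no genetic change or treatment is given. Each sample pooled tissue from 75 to 100 embryos. The labels name the pieces only as anterior dorsal tissue and as ventral and cement gland tissue, called ventral tissue from here on, and do not say which germ layers they hold. Nor do they say whether samples of 1 tissue were taken from separate clutches. The p-values below reflect the spread among these samples alone, and that spread may be technical. These are bulk samples, in which fewer cells of a type and less RNA per cell cannot be told apart.

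At this stage the dorsal head is occupied by the neural tube, which has closed and is regionalised into forebrain, midbrain and hindbrain, with the eye vesicles growing out at its sides. The ventral side is covered by epidermis under the influence of bone morphogenetic proteins (BMP), secreted signals that favour epidermis over neural tissue and whose antagonists come from dorsal tissue. The cement gland is a mucus-secreting organ of the ventral head ectoderm with which the larva attaches itself. Beneath the ventral surface lie the foregut endoderm, the heart primordium and the first macrophages of the embryo.

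Signal intensity was given per probe set on the linear scale of the MAS5 software, and differences are log2 fold changes of signal + 16, anterior dorsal over ventral. Positive values mean higher in anterior dorsal tissue. A difference was called at an adjusted p under 0.05 in limma, a linear model fitted across all probe sets. Signals of a gene are listed in the order of replicates 1, 2 and 3, errors of log2 fold changes are standard errors, and those of mean signals are SD (n = 3). Median signals were 52.5 to 59.6 on the 6 arrays, none of which duplicated another. For beta-actin, the signal near the 3' end divided by that near the 5' end, a measure of transcript length in the labelled RNA, was 8.24 in anterior dorsal 1 and 5.48 in ventral 1. It was 1.502 to 2.03 in the other 4 arrays. No label names a batch. From this ratio alone, number 1 of both tissues was treated as 1 batch and numbers 2 and 3 as another. Of the primary mouth arrays in the fit, 1a and 2 had high ratios (6.66 and 11.2) and 3 a low one.

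Neural transcription factors, neuronal proteins and astacin proteases, a family that includes a hatching gland enzyme, were among the named genes with the largest excess in anterior dorsal tissue. Cement gland proteins, a mucin, heart factors and myeloid enzymes were among those with the largest excess in ventral tissue. The neural eye and forebrain factor pax6.L and the heart factor nkx2-5.S, for example, differed by log2 fold changes of 3.90 and -4.69. Of 10011 probe sets tested, 2469 were called (24.7%), with 1054 (10.5%) higher in anterior dorsal and 1415 (14.1%) higher in ventral tissue. An unadjusted p under 0.05 was reached by 3506.

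The differences reached at least 4-fold, a log2 fold change of 2, in 124 of the probe sets higher in anterior dorsal and in 137 of those higher in ventral tissue. The median size was 0.90 and 0.96 on the log2 scale. The 3 arrays of 1 tissue did not overlap with those of the other in 1048 of the 1054 and 1410 of the 1415 called probe sets, where 42.0% of all tested probe sets did not overlap. With the replicate number as a term in a fit of the 6 arrays alone, 2514 and 2364 probe sets were called in these directions. This alternative was chosen after seeing the data, and 2469 of the 2469 calls remained. With the batch as a term, 1775 and 1908 were called. Both tissues hold the same numbers and the same split into batches. These terms therefore leave the log2 fold changes unchanged, and direction could not change with them. Between the 2 arrays of each tissue in the low-ratio batch alone, the counts were 1391 and 1626. The other batch holds a single array of each tissue and allows no test. Without 1 array, the counts ran from 744 to 1202 for anterior dorsal and from 1097 to 1509 for ventral tissue.

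**Figure D1:**
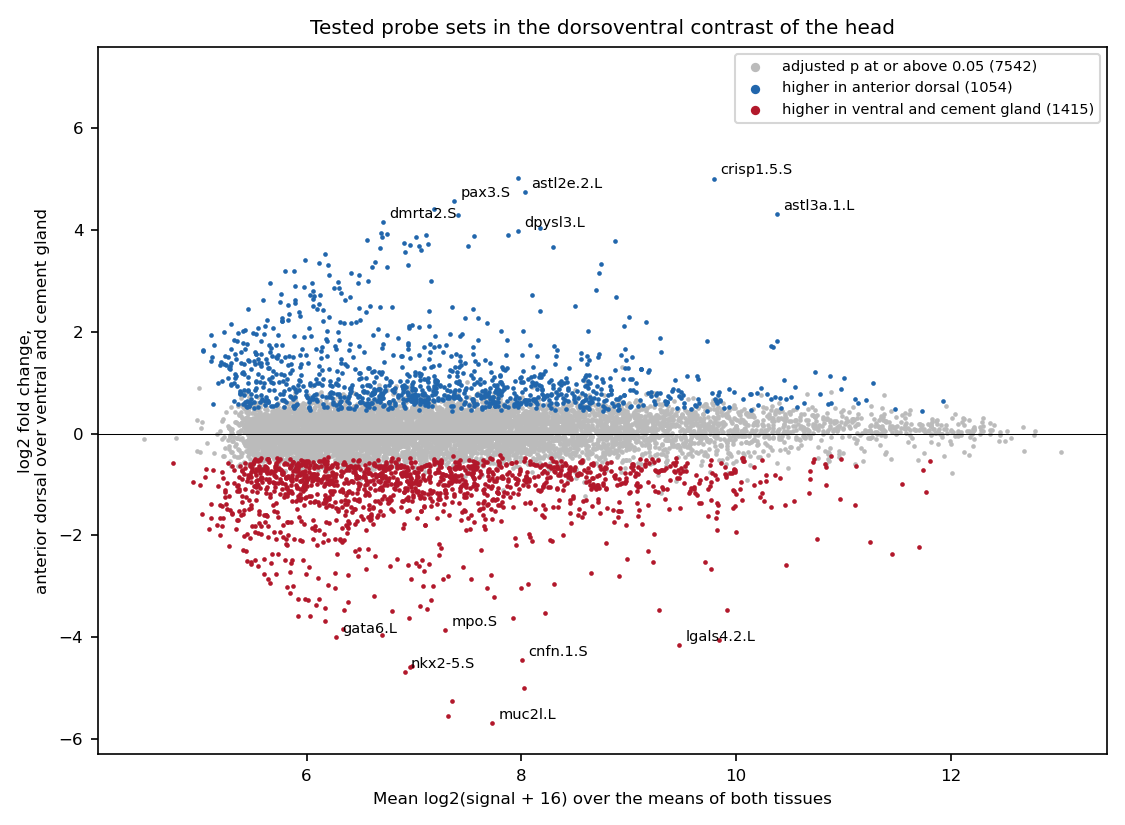
Log2 fold change of anterior dorsal over ventral tissue (vertical axis) against the mean of both tissues as log2(signal + 16) (horizontal axis) for 10011 tested probe sets. Blue points are the 1054 probe sets higher in anterior dorsal and red points the 1415 higher in ventral tissue at an adjusted p under 0.05; the labelled points include crisp1.5.S at 5.01 and muc2l.L at -5.68.

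A part of the tested probe sets had a signal above the filter in 1 tissue only, which favours a call. The filter kept probe sets whose signal exceeded the array's 40th percentile on at least 3 of the 9 arrays, and this percentile lay between 30.9 and 35.8. Among the tested probe sets, 119 passed through the anterior dorsal arrays alone, of which 118 were called higher there. Through the ventral arrays alone 136 passed, of which 134 were called higher there. In all of these the primary mouth arrays were below the filter as well. Probe sets above it in primary mouth and in only 1 of the 2 compared tissues, such as nkx2-5.S, are not among them. Of the 7702 probe sets above the filter on all 9 arrays, 702 were higher in anterior dorsal and 887 in ventral tissue. Where members of a list passed through 1 tissue alone, their number is given beside the counts, with the same limit. The counts are descriptions, to be read against 10.5% and 14.1% over all tested probe sets and against a median log2 fold change of 0.04.

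The labels of both tissues were checked against marker genes. Neural markers were high in the anterior dorsal arrays and lower in the ventral arrays. The signal of sox2.L (gene ID 398000), a factor of neural progenitors, was 306, 456 and 379 in anterior dorsal and 58.9, 86.8 and 53.4 in ventral tissue (2.27 ± 0.20, limma adjusted p = 5.24e-06). Its relative sox3.S (gene ID 399335) had signals of 924, 1212 and 1127 in anterior dorsal and 108, 199.5 and 124 in ventral tissue (2.82 ± 0.24, adjusted p = 4.59e-06). The neuronal tubulin tubb3.L (gene ID 495319) read 165, 219.6 and 243 in anterior dorsal and 37.3, 34.5 and 64.9 in ventral tissue (1.89 ± 0.21, adjusted p = 3.73e-05). For each of these genes, every anterior dorsal array lay above every ventral array. The eye field factor rax was below the filter with all 3 of its probe sets (signals of 10.1 to 25.9 in anterior dorsal tissue).

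The cement gland markers ag1 and agr2 were higher in the ventral arrays. Anterior gradient 1, ag1.L (gene ID 379354), a secreted protein of the gland, had signals of 1402, 1641 and 1523 in anterior dorsal and 9020, 5626 and 7305 in ventral tissue (-2.23 ± 0.21, limma adjusted p = 1.10e-05). Its relative agr2.S (gene ID 398260), a protein disulfide isomerase of mucus-producing cells, read 169.7, 439.5 and 117 in anterior dorsal and 3734, 3190 and 4334 in ventral tissue (-4.06 ± 0.38, adjusted p = 9.54e-06). Both genes had values apart between the tissues, and neither was near the bottom of the scale in anterior dorsal tissue. The marker pitx1.L was also higher in ventral tissue (-1.81 ± 0.20). Both copies of the marker otx2 went the other way (2.02 ± 0.17 for otx2.L and 1.496 ± 0.28 for otx2.S). The summed signal of the 16 tested cement gland probe sets was 6395 to 7971 in anterior dorsal and 24550 to 30270 in ventral arrays. The part that cement gland cells in the anterior dorsal pieces had in these values was not tested.

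Transcription factors of the dorsal forebrain and neural plate were the list with the highest median. Of 24 tested probe sets, 22 were higher in anterior dorsal tissue and 1 was lower, with a median log2 fold change of 2.76. Another 10 probe sets of the list were not tested, and 6 of the 24 passed the filter through anterior dorsal arrays alone. Of the 4 above it on all 9 arrays, 3 were higher and 1 was lower.

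The eye and forebrain regulator pax6.L (gene ID 379100) had signals of 503, 509 and 539.9 in anterior dorsal and 30.9, 27.6 and 6.51 in ventral tissue, a log2 fold change of 3.90 ± 0.27 (limma adjusted p = 8.67e-07). The telencephalic factor dmrta2.S (gene ID 734181) had signals of 392, 389.5 and 509 in anterior dorsal and 16.1, 7.57 and 3.95 in ventral tissue (4.16 ± 0.21, adjusted p = 1.90e-07). In both genes the tissues were far apart, and ventral 3 was the lowest array. Forebrain zinc finger factor fezf2.L (gene ID 735002) read 484, 327 and 349.7 in anterior dorsal and 14.5, 13.2 and 6.73 in ventral tissue (3.87 ± 0.20, adjusted p = 2.16e-07). Signals of eomes.L (gene ID 398065), a T-box factor of the dorsal telencephalon, were 248, 249 and 194 in anterior dorsal and 6.203, 8.03 and 1.69 in ventral tissue (3.53 ± 0.19, adjusted p = 2.16e-07). The levels of eomes.L in ventral tissue lay at the bottom of the scale. The dorsal telencephalic factor emx2.L (gene ID 444481) read 226, 139 and 129 in anterior dorsal and 18.5, 9.24 and 2.53 in ventral tissue (2.80 ± 0.32, adjusted p = 4.70e-05), with the anterior dorsal 1 array above the other 2 of its tissue.

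The zinc finger factor zic2.S, which acts in the dorsal neural tube, differed by 3.75 ± 0.22 (adjusted p = 2.96e-07). The head factors otx1.L and otx2.L, which pattern forebrain and midbrain, differed by 2.51 ± 0.24 and 2.02 ± 0.17 on the log2 scale. Signals of otx2.L (gene ID 432013) were 414, 443 and 449 in anterior dorsal and 80.4, 88.6 and 120.2 in ventral tissue (limma adjusted p = 4.25e-06). otx2 is also known as an inducer of the cement gland and was counted there too. Its copy otx2.S differed by 1.496 ± 0.28 (adjusted p = 0.00198), so both copies were higher on the dorsal side. The exception was irx2.L (gene ID 378497), an Iroquois factor of the neural plate, with signals of 139, 156 and 139 in anterior dorsal and 214, 243 and 239 in ventral tissue (-0.62 ± 0.15, adjusted p = 0.00802). Its copy-family member irx3.L did not pass the test (0.37, adjusted p = 0.233).

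Genes of the ventral forebrain, hypothalamus and pituitary were mostly on the dorsal side of this comparison as well. Of 13 tested probe sets, 7 were higher in anterior dorsal and 3 in ventral tissue, with a median log2 fold change of 1.57. A further 14 were not tested, and 2 passed the filter through anterior dorsal arrays alone. Of the 3 above it on all 9 arrays, 0 were higher in anterior dorsal and 2 in ventral tissue (limma).

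The eye and hypothalamus factor six6.L (gene ID 398128) had signals of 579, 482 and 427 in anterior dorsal and 38.9, 25.6 and 9.195 in ventral tissue (3.72 ± 0.25, limma adjusted p = 6.22e-07). Signals of nkx2-1.L (gene ID 373626), which specifies hypothalamus as well as thyroid and lung, were 246, 223 and 147 in anterior dorsal and 9.71, 8.57 and 8.90 in ventral tissue (3.12 ± 0.19, adjusted p = 3.67e-07). The ventral arrays held little of either gene. The forkhead factor foxb1.S, known from the mammillary hypothalamus in the mouse, differed by 2.97 ± 0.17 and the forebrain factor six3.L by 2.18 ± 0.16 (adjusted p = 2.82e-07 and 1.51e-06). In the opposite direction, pitx1.L (gene ID 394310), a homeobox factor of the cement gland, pituitary and mouth region, read 31.0, 29.5 and 25.04 in anterior dorsal and 168, 164 and 98.4 in ventral tissue (-1.81 ± 0.20, adjusted p = 3.62e-05). The distal-less factors dlx2.S and dlx2.L, known from branchial arch crest and ventral forebrain, differed by -1.69 ± 0.35 and -1.001 ± 0.22 (adjusted p = 0.00369 and 0.00461), and the tissues did not overlap for either copy.

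Midbrain and hindbrain genes were called in both directions. Of 17 tested probe sets, 7 were higher in anterior dorsal and 5 in ventral tissue (median 0.27), and 15 were not tested. With 1 probe set per gene copy, 4 of 13 were higher in anterior dorsal and 5 in ventral tissue (median -0.37). The sign of the median thus depended on how repeated probe sets were counted. The midbrain-hindbrain factors en2.L and pax2.L differed by 1.62 ± 0.19 and 1.47 ± 0.22 (limma adjusted p = 5.47e-05 and 0.000416), and the ligand wnt8b.S by 1.34 ± 0.19 (adjusted p = 0.000277). Signals of en2.L (gene ID 378588) were 105, 102 and 116 in anterior dorsal and 29.9, 21.7 and 21.3 in ventral tissue. The anterior dorsal arrays were close together and well above the ventral ones. The ligand wnt3a.S (gene ID 378679), of the dorsal neural tube, differed by 0.92 ± 0.29 (adjusted p = 0.0329). It lost its call with a pseudocount of 1, within the low-ratio batch, and without any 1 of anterior dorsal 1 or 3 or ventral 1 or 2 (adjusted p up to 0.179).

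The genes higher in ventral tissue included Hox genes, which mark the hindbrain and the crest and mesoderm of the branchial arches. Signals of hoxa3.S (gene ID 379985) were 3.88, 3.53 and 6.81 in anterior dorsal and 111, 111 and 76.1 in ventral tissue (-2.46 ± 0.18, limma adjusted p = 1.10e-06). Those of hoxa2.L (gene ID 373836) were 7.73, 9.15 and 4.49 in anterior dorsal and 54.4, 66.3 and 38.05 in ventral tissue (-1.56 ± 0.20, adjusted p = 0.000111). For both genes the anterior dorsal arrays lay at the bottom of the scale. The copy hoxa2.S differed by -1.38 ± 0.16 and the Hox cofactor meis3.S by -1.35 ± 0.21 (adjusted p = 6.12e-05 and 0.000583). Of the 12 called probe sets of this list, none was above the filter on all 9 arrays, and of the 17, 4 passed through the ventral and 1 through the anterior dorsal arrays alone. With the stricter filter, which tested fewer probe sets, 3 were called higher in anterior dorsal and 0 in ventral tissue.

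Neural progenitor and Notch pathway genes were higher dorsally in 18 of 25 tested probe sets and lower in 0 (limma), with a median log2 fold change of 1.38. At an unadjusted p under 0.05, 1 probe set was higher in ventral tissue, and 20 of the list were not tested. Of the 25, 2 passed the filter through the anterior dorsal arrays alone. Of the 17 above the filter on all 9 arrays, 11 were higher in anterior dorsal tissue. Notch signalling keeps cells in the progenitor state through Hes repressors.

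The Hes repressor hes5.1.L (gene ID 379151) had signals of 406, 339 and 462 in anterior dorsal and 20.96, 15.8 and 20.7 in ventral tissue (3.57 ± 0.33, limma adjusted p = 9.43e-06). Its relatives hes5.2.L and hes5.2.S differed by 3.37 ± 0.26 and 3.28 ± 0.26, and hes7.1.L by 2.90 ± 0.23 (adjusted p = 2.09e-06, 2.79e-06 and 2.53e-06). All 4 repressor probe sets had the tissues apart. The ligand dll1.L (gene ID 100337564), which activates Notch in neighbouring cells, read 1305, 906 and 1065 in anterior dorsal and 381, 286 and 375 in ventral tissue (1.60 ± 0.20, adjusted p = 9.74e-05). The receptor notch1.S differed by 1.34 ± 0.31 (adjusted p = 0.00685) and the RNA-binding progenitor protein msi1.S by 2.68 ± 0.22 (adjusted p = 3.57e-06). Not every Hes gene followed: hes4.S differed by -0.11 ± 0.20 (adjusted p = 0.761). The related repressor hey1.S differed by -0.57 ± 0.21 and did not pass (adjusted p = 0.0730). It passed on the ventral side with the replicate number as a term in the 6 arrays (adjusted p = 0.000767). The same held with the batch as a term (adjusted p = 0.0177) and within the low-ratio batch.

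Genes of differentiating neurons were higher dorsally in 24 of 32 tested probe sets and higher ventrally in 3, with a median log2 fold change of 1.94. Of the list, 32 further probe sets were not tested, and 10 of the 32 tested passed the filter through anterior dorsal arrays alone. Above it on all 9 arrays were 7, of which 3 were higher in anterior dorsal and 1 in ventral tissue. The summed signal of the tested members was 9949 to 10540 in anterior dorsal and 2570 to 2671 in ventral arrays.

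Peripherin, prph.S (gene ID 379545), an intermediate filament of neurons with long axons, read 1251, 1117 and 1098 in anterior dorsal and 75.03, 66.1 and 32.04 in ventral tissue (4.04 ± 0.24, limma adjusted p = 2.96e-07). Signals of the growth cone protein dpysl3.L (gene ID 494650) were 1076, 903 and 963 in anterior dorsal and 61.9, 56.7 and 28.7 in ventral tissue (3.97 ± 0.21, adjusted p = 2.16e-07). Its copy dpysl3.S differed by 3.62 ± 0.23 (adjusted p = 4.10e-07), and both copies had ventral 3 as the lowest array. The neuronal splicing regulator nova2.L differed by 3.89 ± 0.22 and the neural RNA-binding protein celf3.S by 3.69 ± 0.33 (adjusted p = 2.74e-07 and 6.10e-06). Among other leading genes of anterior dorsal tissue, ttyh1.L encodes a membrane protein of the tweety family expressed in neural tissue and differed by 3.94 ± 0.25 (adjusted p = 5.08e-07).

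Vesicle and secretory granule genes were the exceptions among the neuronal members. Synaptotagmin 1, syt1.L (gene ID 447431), the calcium sensor of vesicle release, had signals of 178, 176 and 188 in anterior dorsal and 447, 511 and 616 in ventral tissue (-1.44 ± 0.18, limma adjusted p = 7.66e-05). The vesicle GTPase rab3a.L (gene ID 495404) read 77.7, 108 and 134 in anterior dorsal and 244, 209.8 and 324 in ventral tissue (-1.17 ± 0.24, adjusted p = 0.00300). Both were higher in every ventral array than in any anterior dorsal array. The granule protein chga.L differed by -0.70 ± 0.16 (adjusted p = 0.00695), whereas its copy chga.S differed by 0.995 ± 0.21 (adjusted p = 0.00381).

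**Figure D2:**
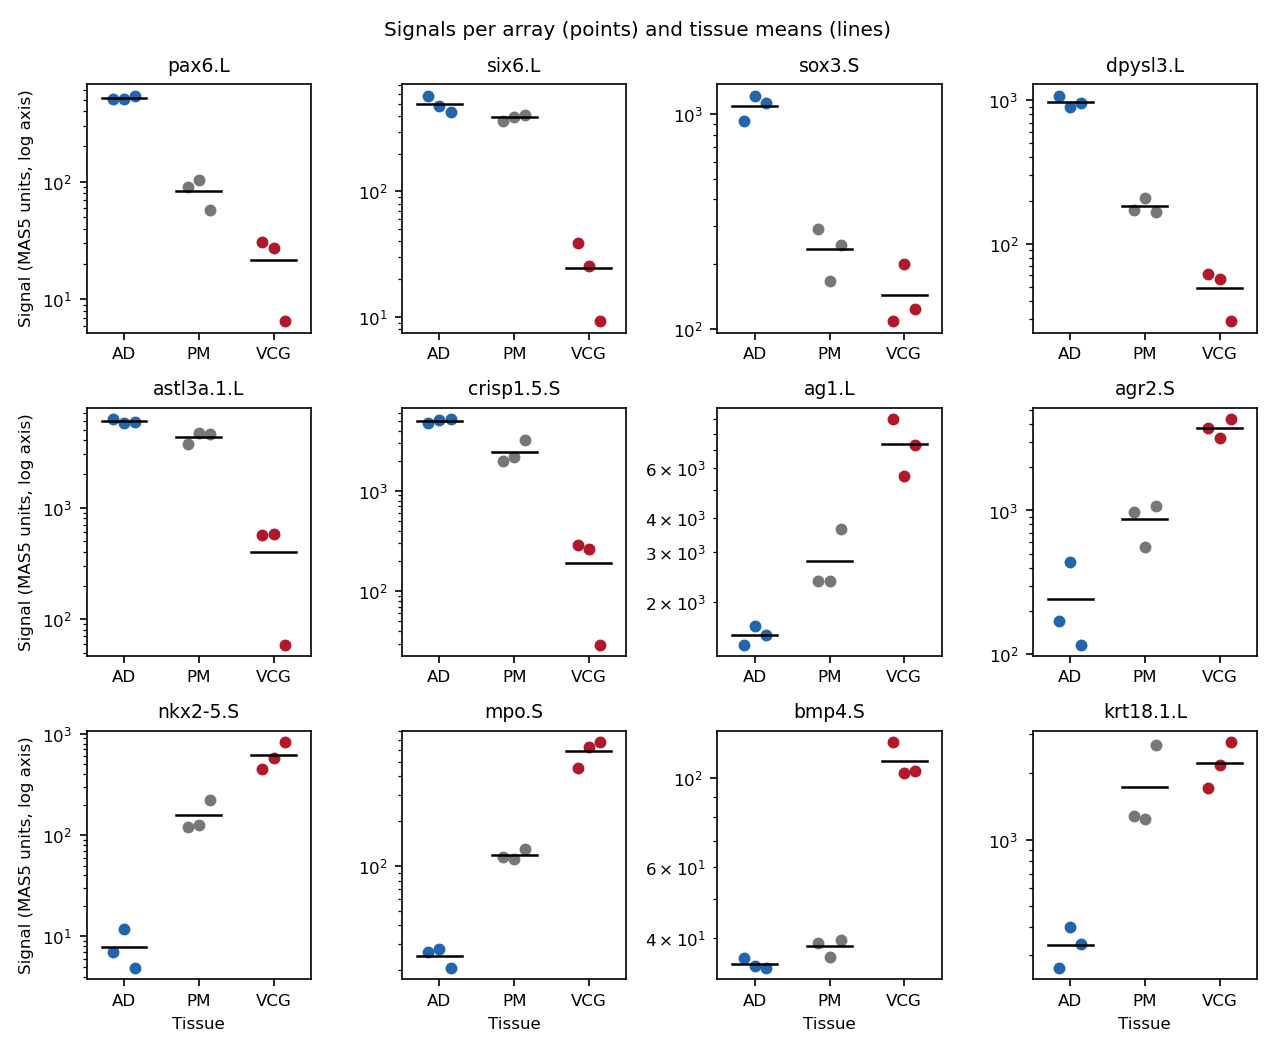
Signals in MAS5 units (vertical log axes, which differ between panels) of 12 genes on the 3 arrays of anterior dorsal (AD), primary mouth (PM) and ventral and cement gland (VCG) tissue. Points are arrays and lines are tissue means; in all 12 panels the anterior dorsal and ventral arrays are apart, and in pax6.L, six6.L, astl3a.1.L and crisp1.5.S the array ventral 3 is the lowest of its tissue.

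Eye and lens genes were found on both sides. Of 16 tested probe sets, 6 were higher in anterior dorsal and 4 in ventral tissue (median 0.35), and 21 were not tested. Retinal genes were among the first group. The opsin-related rgr.S of the retina and its pigment epithelium differed by 2.75 ± 0.19, the retinal homeobox gene vsx1.L by 2.07 ± 0.25 and the retinaldehyde-binding protein rlbp1.L by 1.66 ± 0.25 (limma adjusted p = 8.37e-07, 7.73e-05 and 0.000405). The melanin synthesis gene tyrp1.L (gene ID 380184) read 67.1, 71.1 and 51.8 in anterior dorsal and 20.9, 15.3 and 16.7 in ventral tissue (1.23 ± 0.16, adjusted p = 0.000152). In 4 of the 16 probe sets the filter was passed through anterior dorsal arrays alone.

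The T-box repressor tbx3.S (gene ID 397816), which acts in the eye, the cement gland region and the heart and is a known BMP target, was higher in ventral tissue. Its signals were 36.1, 47.4 and 40.3 in anterior dorsal and 283, 324 and 301 in ventral tissue (-2.48 ± 0.17, limma adjusted p = 7.05e-07). The crystallin cryba2.S, a structural protein of the lens, differed by -1.79 ± 0.17 (adjusted p = 1.22e-05). Copy tbx3.L and its relative tbx2.L differed by -1.21 ± 0.18 and -0.88 ± 0.18 (adjusted p = 0.000405 and 0.00374).

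The hatching gland is a strip of cells on the dorsal midline of the head that secretes proteases to dissolve the egg envelopes. Its astacin protease astl3a.1.L (gene ID 397718) was the highest of the leading genes in signal, with 6233, 5771 and 5810 in anterior dorsal and 571, 583 and 59.2 in ventral tissue (4.32 ± 0.59, limma adjusted p = 0.000194). Another astacin family gene, astl2e.2.L (gene ID 494813), read 1225, 1290 and 1534 in anterior dorsal and 54.8, 49.2 and 11.7 in ventral tissue (4.75 ± 0.33, adjusted p = 8.81e-07). In both genes ventral 3 was several times below ventral 1 and 2. The secreted cysteine-rich protein crisp1.5.S (gene ID 398591) had the largest log2 fold change of the named genes in this direction, 5.01 ± 0.55 (adjusted p = 3.26e-05), with signals of 4803, 5076 and 5217 in anterior dorsal and 286, 263 and 29.3 in ventral tissue.

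The paired box factor pax3.S (gene ID 496376), which is needed for hatching gland and neural crest in Xenopus, read 799, 876 and 706 in anterior dorsal and 27.7, 26.6 and 5.30 in ventral tissue (4.56 ± 0.25, limma adjusted p = 2.70e-07). Its copy pax3.L (gene ID 496377) behaved otherwise, with 927, 553 and 519.8 in anterior dorsal and 1119, 765 and 785 in ventral tissue (-0.44, adjusted p = 0.359). With the replicate number as a term in the 6 arrays, pax3.L was called higher in ventral tissue (adjusted p = 0.00270), and so it was within the low-ratio batch. Probes designed for 1 copy may bind transcripts of the other, and a contrast between copies is uncertain for that reason. The serine protease xepsin.S (gene ID 779376) had 77.6, 312 and 273 in anterior dorsal and 4.97, 5.34 and 0.392 in ventral tissue (3.41 ± 0.45, adjusted p = 0.000128), with anterior dorsal 1 far below the other 2 arrays of its tissue. Its copy xepsin.L was high in both tissues, with 268, 564 and 539 in anterior dorsal and 346, 496 and 779 in ventral tissue, and did not pass (-0.23, adjusted p = 0.685).

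Of the 5 tested members of the hatching gland list, 2 were higher in anterior dorsal and 2 in ventral tissue. Cathepsin S, ctss.S, a lysosomal protease also made by macrophages, differed by -2.36 ± 0.19, and the secretory pathway factor xbp1.L by -1.13 ± 0.20 (limma adjusted p = 2.53e-06 and 0.00117). The protease inhibitor cst3.L differed by 0.73 ± 0.16 (adjusted p = 0.00454). The astacin gene astl2d.1.L (gene ID 398485) had overlapping signals of 401, 585 and 757 in anterior dorsal and 438, 544 and 960.3 in ventral tissue and did not pass the test (adjusted p = 0.854).

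Ventral 3 was lower than the other ventral arrays in most genes with a large dorsal excess. It was the lowest ventral array in 93 of the 124 probe sets at least 4-fold higher in anterior dorsal tissue. The same held in 532 of all 1054 called higher there, and in 35 of the 137 at least 4-fold higher in ventral tissue. The 124 were selected in part through low ventral signals, those of ventral 3 included. Over these 124 the median signal was 22.5 in ventral 1, 18.5 in ventral 2 and 9.73 in ventral 3, against 240, 244 and 218 in the anterior dorsal arrays. Whether ventral 3 held less adjoining tissue was not tested. All of the 40 leading genes kept their call and direction in each of the 21 alternatives, those without ventral 3 included. They were chosen from the same arrays for large changes without overlap, so keeping the call is no independent evidence.

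**Figure D3:**
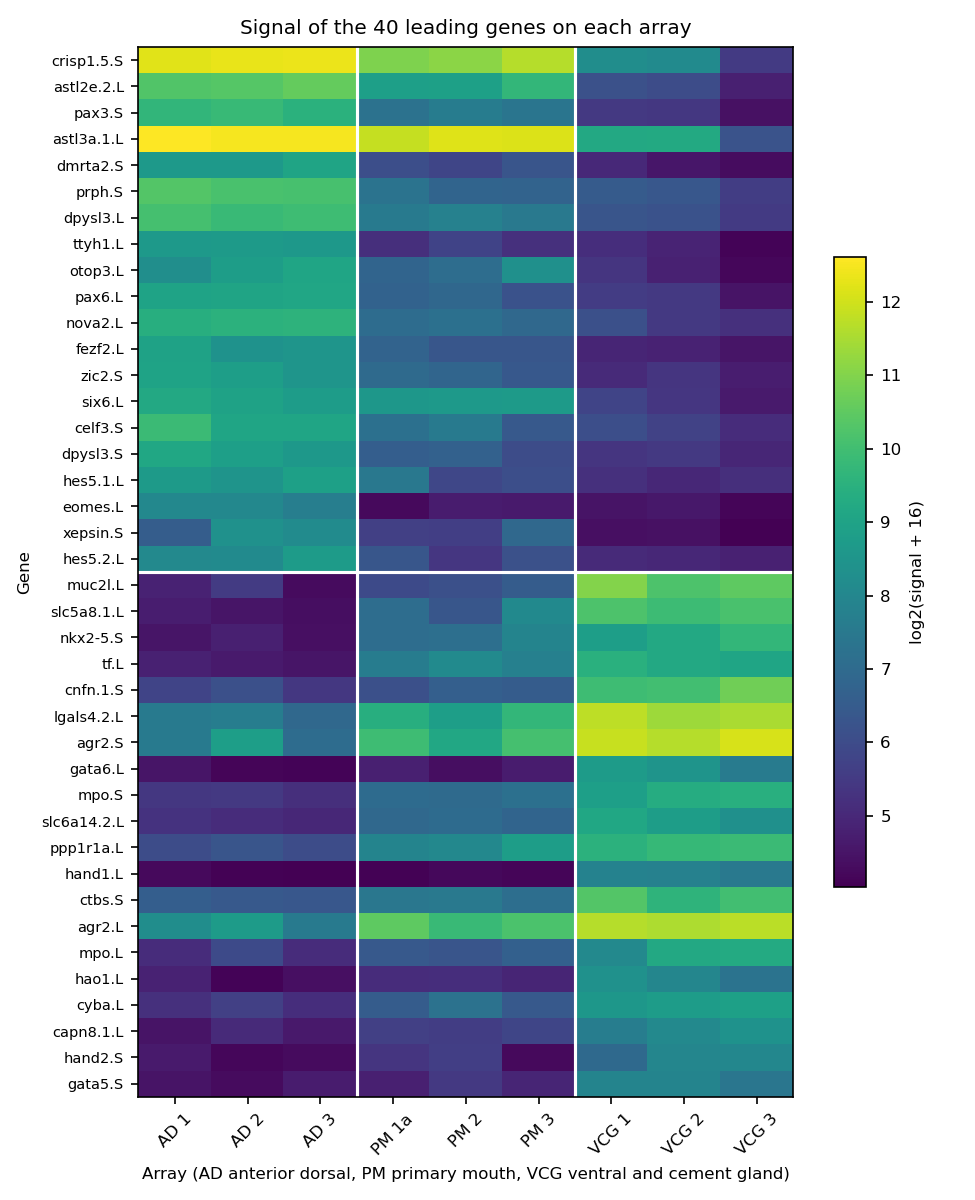
Log2(signal + 16), as colour, of the 20 named genes farthest apart in each direction (rows, dorsal above the white line and ventral below it) on the 9 arrays (columns: AD anterior dorsal, PM primary mouth, VCG ventral and cement gland). Only genes whose anterior dorsal and ventral arrays do not overlap were eligible, so these columns are apart in every row by choice. VCG 3 is the darkest ventral column in most of the upper rows.

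DNA replication and cell division genes formed the largest list. Of 111 tested probe sets, 66 were higher in anterior dorsal and 0 in ventral tissue in limma (80 and 0 at an unadjusted p under 0.05), while 45 were not called. A positive log2 fold change was found in 109, and the median was 0.70. Without anterior dorsal 2, 43 were called. All 9 arrays were above the filter for 104 of the 111, so the count rests on probe sets measured in both tissues.

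The replication licensing factor cdc6.S (gene ID 398082) had signals of 221, 281 and 283 in anterior dorsal and 86.6, 77.5 and 75.8 in ventral tissue (1.53 ± 0.17, limma adjusted p = 3.62e-05). Cyclin D1, ccnd1.S (gene ID 379161), which drives entry into the cycle, read 772, 878 and 786 in anterior dorsal and 245, 295 and 334 in ventral tissue (1.44 ± 0.18, adjusted p = 7.56e-05). The tissues did not overlap for either gene. The Myc target cdca7.L differed by 1.502 ± 0.20 and the replicative helicase subunit mcm5.S by 1.39 ± 0.36 (adjusted p = 0.000148 and 0.0128). Members with a higher mean signal included hmgb2.S and hmgb2.L, chromatin proteins of dividing cells, which did not pass (0.24 and 0.43, adjusted p = 0.389 and 0.0746). With the replicate number as a term in the 6 arrays hmgb2.L did (adjusted p = 0.00264). The same held for hmgb2.L with the batch as a term (adjusted p = 0.0131) and within the low-ratio batch.

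On the ventral side, cement gland genes were higher in 11 of 16 tested probe sets and lower in 2, with a median log2 fold change of -1.17. Only 1 probe set of the list was not tested, 1 passed the filter through the ventral arrays alone, and 13 of the 16 were above it on all 9 arrays. Of these 13, 9 were higher in ventral and 1 in anterior dorsal tissue. The 2 exceptions were the copies of otx2 described above. The secreted proteins ag1.S and agr2.L differed by -2.37 ± 0.26 and -3.47 ± 0.27 (limma adjusted p = 3.29e-05 and 1.95e-06). The distal-less factors dlx3.L and dlx3.S, which act in non-neural ectoderm and cement gland, differed by -1.01 ± 0.18 and -1.07 ± 0.22 (adjusted p = 0.00131 and 0.00321). Signals of creb3l2.L, a secretory pathway factor, were 121, 48.6 and 47.4 in anterior dorsal and 229, 153 and 79.96 in ventral tissue. This gene did not pass (adjusted p = 0.104). With the replicate number as a term in the 6 arrays its adjusted p was 7.71e-05, and with the batch as a term 0.001855. It was also called higher in ventral tissue within the low-ratio batch.

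Secreted and transport proteins of mucus and surface epithelia led the ventral genes. The mucin muc2l.L (gene ID 100049101), a gel-forming glycoprotein, had signals of 12.9, 30.5 and 3.29 in anterior dorsal and 2046, 1182 and 1408 in ventral tissue. Its log2 fold change of -5.68 ± 0.30 was the largest of the named genes (limma adjusted p = 2.16e-07). The sugar-binding lectin lgals4.2.L (gene ID 398443), of the galectin family, read 174, 189 and 106 in anterior dorsal and 3479, 2608 and 2911 in ventral tissue (-4.15 ± 0.25, adjusted p = 3.12e-07). Arrays without overlap were a condition for choosing both genes as leading genes. In anterior dorsal tissue, lgals4.2.L kept a signal well above the filter.

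The monocarboxylate transporter gene slc5a8.1.L (gene ID 403396) had signals of 10.5, 7.15 and 4.64 in anterior dorsal and 1186, 946 and 1110 in ventral tissue (-5.55 ± 0.34, limma adjusted p = 3.57e-07). The amino acid transporter gene slc6a14.2.L differed by -3.63 ± 0.21, the epithelial calpain protease capn8.1.L by -3.31 ± 0.22 and the lysosomal glycosidase ctbs.S by -3.52 ± 0.19 (adjusted p = 2.83e-07, 5.70e-07 and 2.67e-07). Signals of ctbs.S were 79.8, 70.8 and 66.4 in anterior dorsal and 1250, 768 and 1029 in ventral tissue. The peroxisomal oxidase hao1.L and the phosphatase regulator ppp1r1a.L differed by -3.44 ± 0.26 and -3.62 ± 0.23 (adjusted p = 1.91e-06 and 4.11e-07). The cornified envelope protein cnfn.1.S (gene ID 444756) read 38.9, 54.5 and 26.96 in anterior dorsal and 960.2, 1007 and 1710 in ventral tissue (-4.45 ± 0.25, adjusted p = 2.82e-07).

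Epidermal genes were higher in ventral tissue in 20 of 41 tested probe sets and lower in 0 (limma), with a median log2 fold change of -0.68. At an unadjusted p under 0.05 the counts were 26 and 1. All 9 arrays were above the filter for 37, of which 16 were higher in ventral tissue. With the replicate number as a term in the 6 arrays, 36 were higher in ventral and 1 in anterior dorsal tissue, and with the batch as a term 33 and 1. The summed signal of the members was 49800 to 53510 in anterior dorsal and 65630 to 79800 in ventral arrays, so epidermal transcripts were abundant in both pieces.

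The simple epithelial keratin krt18.1.L (gene ID 380504) had signals of 262, 403 and 338 in anterior dorsal and 1718, 2168 and 2758 in ventral tissue (-2.66 ± 0.29, limma adjusted p = 3.06e-05). Keratin krt19.L (gene ID 432054) read 1235, 1254 and 949 in anterior dorsal and 6460, 4262 and 4724 in ventral tissue (-2.14 ± 0.19, adjusted p = 5.66e-06). Both keratins were lower in all anterior dorsal arrays. The epidermal factor gata3.S, a target of BMP, differed by -1.99 ± 0.20 (adjusted p = 1.66e-05). Other abundant members differed little. The keratin krt70.S and the skin lectin itln1.L differed by -0.37 and -0.35 and did not pass (adjusted p = 0.239 and 0.377), though both did with the replicate number as a term in the 6 arrays (0.0238 and 0.0260).

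Ionocytes are scattered cells of the larval skin that move protons and ions. Of 32 tested probe sets of their list, 9 were higher in ventral tissue and 0 in anterior dorsal (10 and 0 at an unadjusted p under 0.05), with a median of -0.35. The replicate number as a term in the 6 arrays gave 19 and the batch as a term 16. Of the 32, 3 passed the filter through the ventral arrays alone. The pump subunit atp6v1b1.L (gene ID 779272) had signals of 15.02, 16.7 and 18.6 in anterior dorsal and 251, 302 and 297.7 in ventral tissue (-3.19 ± 0.21, limma adjusted p = 6.22e-07). Subunit atp6v0d2.L (gene ID 447489) read 40.9, 35.95 and 35.7 in anterior dorsal and 333, 278 and 319 in ventral tissue (-2.60 ± 0.16, adjusted p = 3.87e-07). The arrays of each tissue lay close together in both genes.

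Carbonic anhydrase 2, ca2.S, which supplies protons to the pump, differed by -2.56 ± 0.18, and the pump subunit atp6v0a4.L by -2.005 ± 0.19 (limma adjusted p = 1.10e-06 and 1.12e-05). The forkhead factor foxi1.L (gene ID 380059), which specifies ionocytes, read 12.14, 7.45 and 6.61 in anterior dorsal and 66.2, 50.2 and 56.6 in ventral tissue (-1.57 ± 0.16, adjusted p = 1.66e-05). Pump subunits found in most cells did not pass, with log2 fold changes of -0.06 for atp6v0c.L and 0.00 for atp6v1g1.S (adjusted p = 0.844 and 0.996). Only 2 of the 25 members above the filter on all 9 arrays were called.

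Ciliated cells cover the larval skin and drive water over it. Of 36 tested probe sets of ciliary genes, 18 were higher in ventral and 2 in anterior dorsal tissue (median -0.59), and 1 passed the filter through the ventral arrays alone. The sperm and cilium protein odf3.L (gene ID 379057) had signals of 35.95, 45.9 and 32.3 in anterior dorsal and 133, 155 and 171 in ventral tissue (-1.65 ± 0.21, limma adjusted p = 0.000110). Tektin tekt4.S and the ciliary protein cfap52.S, parts of the axoneme, differed by -1.51 ± 0.25 and -1.49 ± 0.20 (adjusted p = 0.000704 and 0.000135), and the tissues were apart for all of them. In the opposite direction, ccno.L (gene ID 734946), a cyclin-like protein needed to multiply centrioles, read 30.6, 46.0 and 45.2 in anterior dorsal and 5.90, 12.26 and 13.4 in ventral tissue (1.09 ± 0.23, adjusted p = 0.00375). Without anterior dorsal 2, 1 member was higher in anterior dorsal tissue.

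Heart genes were the list with the lowest median. Of 20 tested probe sets, 18 were higher in ventral and 1 in anterior dorsal tissue, with a median log2 fold change of -2.40. Passage of the filter rested on the ventral arrays alone for 11 of the 20, and another 20 were not tested. Only 2 members were above the filter on all 9 arrays, of which 1 was higher in ventral tissue. The summed signal of the members was 373 to 405 in anterior dorsal and 3100 to 3415 in ventral arrays.

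The cardiac homeobox factor nkx2-5.S (gene ID 379882) had signals of 7.02, 11.8 and 4.88 in anterior dorsal and 448, 572 and 826 in ventral tissue (-4.69 ± 0.26, limma adjusted p = 2.70e-07). The heart and endoderm factor gata6.L (gene ID 399082) read 7.18, 1.60 and 1.57 in anterior dorsal and 409.7, 338 and 180.4 in ventral tissue (-4.003 ± 0.26, adjusted p = 5.70e-07). Anterior dorsal tissue held both genes only at the bottom of the scale. Its relative gata5.S differed by -3.25 ± 0.22, and the heart and branchial arch factors hand1.L and hand2.S by -3.59 ± 0.15 and -3.27 ± 0.35 (adjusted p = 6.38e-07, 9.67e-08 and 2.59e-05). Among contractile genes, the cardiac troponin tnni3.L differed by -2.55 ± 0.26 and the atrial light chain myl4.L by -2.12 ± 0.21 (adjusted p = 1.66e-05 and 1.66e-05), and the slow troponin tnni1.S did not pass (-0.01, adjusted p = 0.973). The member higher dorsally was the matrix protein gene tgfbi.L (1.48 ± 0.21, adjusted p = 0.000253), which is not specific to heart.

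Primitive myeloid cells, the first macrophages and granulocytes, arise ventrally in the anterior blood island. Of 15 tested probe sets, 12 were higher in ventral and 1 in anterior dorsal tissue (median -1.60), and 4 passed the filter through the ventral arrays alone. Of the 4 above it on all 9 arrays, 1 was higher in ventral and 1 in anterior dorsal tissue. Myeloperoxidase, mpo.S (gene ID 373710), a granule enzyme, had signals of 26.5, 27.7 and 20.8 in anterior dorsal and 457, 632 and 677 in ventral tissue (-3.87 ± 0.18, limma adjusted p = 1.86e-07). The myeloid factor cebpa.L (gene ID 379967) read 8.19, 10.2 and 12.13 in anterior dorsal and 215, 185 and 173 in ventral tissue (-2.98 ± 0.20, adjusted p = 6.69e-07). Both genes had the ventral arrays far above the others. The copy mpo.L differed by -3.46 ± 0.32 and the oxidase subunit cyba.L by -3.40 ± 0.23 (adjusted p = 7.97e-06 and 8.52e-07).

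The chemokine receptor cxcr4.L (gene ID 100192360), which is found on leukocytes and also guides neural and crest cells, was the member higher in anterior dorsal tissue. Its signals were 937, 1274 and 1609 in anterior dorsal and 133, 143.4 and 105 in ventral tissue (3.15 ± 0.30, limma adjusted p = 1.17e-05). The copy cxcr4.S had overlapping signals of 760.5, 909 and 705 in anterior dorsal and 886, 729 and 773 in ventral tissue (-0.01, adjusted p = 0.967).

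Endothelial genes were higher in ventral tissue in 7 of 10 tested probe sets and in anterior dorsal tissue in 0, also at an unadjusted p under 0.05 in limma (median -0.88). In the 6 arrays with the replicate number as a term, 1 was higher in anterior dorsal tissue. The apelin receptor aplnr.S (gene ID 379537), a marker of vascular precursors, had signals of 92.3, 85.4 and 81.1 in anterior dorsal and 327, 263 and 335 in ventral tissue (-1.66 ± 0.18, adjusted p = 3.39e-05). Its copy aplnr.L differed by -1.52 ± 0.21 (adjusted p = 0.000175), and the complement protease cfd.L by -2.52 ± 0.18 (adjusted p = 1.26e-06). The latter, though counted in this list, is not specific to endothelium. The vascular and endodermal factor sox17a.L (-0.95 ± 0.26, adjusted p = 0.0169) lost its call without anterior dorsal 1, ventral 2 or ventral 3 and with a pseudocount of 64 (adjusted p up to 0.0729).

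Blood genes gave no common direction, with 4 of 13 tested probe sets higher in either tissue and 21 not tested. The factors nfe2.S and gata2.L, both known from blood precursors, differed by 1.52 ± 0.28 and -0.92 ± 0.19 (limma adjusted p = 0.00153 and 0.00305). The globin hba-l5.L had signals of 27.6, 16.97 and 27.6 in anterior dorsal and 30.2, 25.99 and 35.9 in ventral tissue, near the filter in all 6 arrays (-0.23, adjusted p = 0.509). The haem synthesis genes urod.L and fech.L were called higher in ventral tissue (-0.90 ± 0.23 and -0.59 ± 0.17). Without anterior dorsal 3 the ventral count was 1, and their adjusted p rose to as much as 0.0581 and 0.0916 when 1 array was left out.

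Foregut, liver and plasma protein genes were higher in ventral tissue in 10 of 19 tested probe sets and in anterior dorsal tissue in 2 (median -1.78), and 38 were not tested. Of the 19, 3 passed the filter through the ventral arrays alone, and of the 7 above it on all 9 arrays 2 were higher in ventral and 1 in anterior dorsal tissue. The iron carrier transferrin, tf.L (gene ID 398723), had signals of 12.46, 9.31 and 6.90 in anterior dorsal and 695, 577 and 519 in ventral tissue (-4.58 ± 0.19, limma adjusted p = 9.20e-08). Its levels in anterior dorsal tissue were at the bottom of the scale. The complement regulator cfi.S differed by -3.03 ± 0.21 and the protease inhibitor a2m.S by -2.58 ± 0.20 (adjusted p = 7.53e-07 and 1.70e-06). Signals of a2m.S (gene ID 100158443) were 604, 552 and 524 in anterior dorsal and 4687, 2794 and 3089 in ventral tissue. Kininogen, kng1.L, the precursor of kinin peptides, was higher in anterior dorsal tissue (1.24 ± 0.26, adjusted p = 0.00381).

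The dorsal count of this list varied, with 1 member called without anterior dorsal 1, without ventral 2 or with a pseudocount of 64, and 4 without primary mouth 3. It was 6 with the replicate number as a term in the 6 arrays and with the batch as a term. Complement c3.L and the lipid carrier apoe.L were among those gained (0.46 and 0.62; limma adjusted p = 0.0885 and 0.0748, and 0.00218 and 0.000739 with the replicate number as a term in the 6 arrays).

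**Figure D4:**
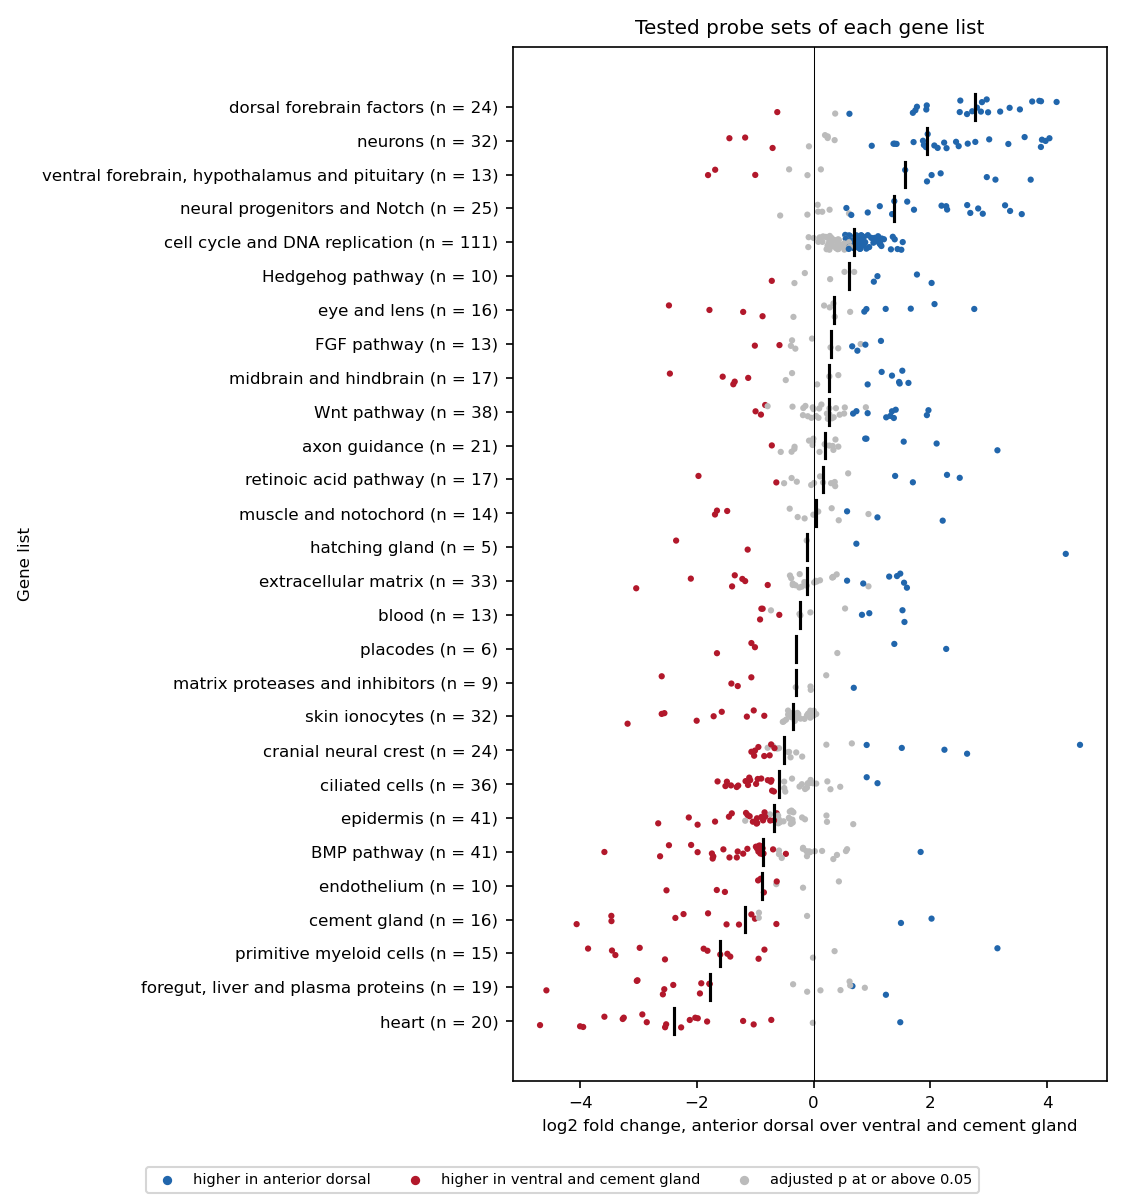
Log2 fold change of anterior dorsal over ventral tissue (horizontal axis) of each tested probe set in the 28 gene lists (rows, ordered by median, with the number of tested probe sets). Blue and red points passed the test as higher in anterior dorsal or ventral tissue, grey points did not, and black bars are medians, from 2.76 for dorsal forebrain factors to -2.40 for heart.

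Components and target genes of the BMP pathway were higher on the ventral side at several levels. Some members were also counted in other lists, such as hand1.L with the heart genes (-3.59) and tbx3.S with the eye genes (-2.48). Their part in the count cannot be told apart from a difference in cell content. Of 41 tested probe sets, 25 were higher in ventral and 1 in anterior dorsal tissue (median -0.88), 4 passed the filter through the ventral arrays alone, and 24 were not tested. Of the 20 above it on all 9 arrays, 7 were higher in ventral and 1 in anterior dorsal tissue. In the 6 arrays with the replicate number as a term, 4 were higher in anterior dorsal tissue, and 3 with the batch as a term. Without ventral 2 the dorsal count was 2.

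Among ligands, bmp4.S (gene ID 399322) had signals of 35.6, 34.1 and 33.8 in anterior dorsal and 123, 103 and 104 in ventral tissue (-1.32 ± 0.15, limma adjusted p = 3.74e-05). The ligand bmp2.L (gene ID 397873) read 15.5, 13.7 and 11.6 in anterior dorsal and 106, 118 and 109 in ventral tissue (-2.100 ± 0.15, adjusted p = 1.19e-06). The spread within each tissue was small for both. Another ligand gene, bmp7.1.L, differed by -1.30 ± 0.16 (adjusted p = 9.90e-05). Among feedback inhibitors, which BMP signalling itself induces, the decoy receptor bambi.L (gene ID 394401) read 3.79, 16.2 and 12.03 in anterior dorsal and 86.4, 174 and 203 in ventral tissue (-2.63 ± 0.28, adjusted p = 2.95e-05). The inhibitory Smads smad7.L and smad6.L differed by -1.73 ± 0.25 and -1.44 ± 0.28 (adjusted p = 0.000246 and 0.00218). The ventral homeobox target ventx2.1.S differed by -1.74 ± 0.20 (adjusted p = 4.81e-05).

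Signals of noggin, nog.L (gene ID 373646), which binds BMP outside the cell, were 41.4, 54.2 and 44.97 in anterior dorsal and 51.7, 56.1 and 49.1 in ventral tissue (-0.12, limma adjusted p = 0.716), and the tissues overlapped. Sizzled, szl.L (gene ID 398164), an inhibitor of chordin breakdown made in ventral cells, did not pass the filter and was not tested, with signals of 4.36, 0.521 and 0.316 in anterior dorsal and 31.99, 51.5 and 35.5 in ventral tissue. Its anterior dorsal arrays all lay below the ventral ones. The member higher dorsally was rgma.L (gene ID 380244), a BMP co-receptor and axon guidance protein of the brain, with 339, 369 and 341 in anterior dorsal and 88.3, 80.95 and 90.5 in ventral tissue (1.83 ± 0.14, adjusted p = 2.42e-06). The target gene id3.S differed by -0.55 and did not pass (adjusted p = 0.177). With the replicate number as a term in the 6 arrays it did (adjusted p = 0.000423). The same held with the batch as a term (adjusted p = 0.00530) and within the low-ratio batch.

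Wnt pathway members were higher in anterior dorsal tissue in 10 of 38 tested probe sets and in ventral tissue in 3 (median 0.26). Of the 38, 2 passed the filter through the anterior dorsal arrays alone. Of the 19 above it on all 9 arrays, 2 were higher in anterior dorsal and 3 in ventral tissue, so these showed no dorsal excess. In the 6 arrays with the replicate number as a term the counts were 16 and 5. The ligand wnt8a.L (gene ID 397970) had signals of 64.7, 66.5 and 116 in anterior dorsal and 8.26, 16.8 and 2.52 in ventral tissue (1.97 ± 0.25, limma adjusted p = 0.000102). The transcription factor tcf7l2.L, the nuclear end of the pathway, differed by 1.94 ± 0.24 and the receptor fzd10.S by 1.41 ± 0.21 (adjusted p = 7.59e-05 and 0.000372). The secreted inhibitor wif1.S differed by 1.37 ± 0.20 (adjusted p = 0.000356). On the ventral side, the secreted antagonist sfrp2.S (gene ID 380355) read 525, 538 and 372 in anterior dorsal and 1038, 886 and 785 in ventral tissue (-0.90 ± 0.20, adjusted p = 0.00605), and the receptor ror2.L differed by -0.83 ± 0.18 (adjusted p = 0.00533). The 2 copies of beta-catenin differed by 0.23 (ctnnb1.L) and 0.08 (ctnnb1.S) and did not pass (adjusted p = 0.548 and 0.794).

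Hedgehog is a secreted signal made in the ventral midline of the neural tube. Of 10 tested probe sets, 4 were higher in anterior dorsal and 1 in ventral tissue. The ligand shh.L (gene ID 398047) had signals of 115, 133 and 117 in anterior dorsal and 53.4, 58.2 and 35.95 in ventral tissue (1.09 ± 0.30, limma adjusted p = 0.0169). Its arrays did not overlap, but the adjusted p was 0.0610 to 0.0722 without anterior dorsal 2 or without ventral 3. The target nkx2-2.S, a factor of the ventral neural tube, differed by 2.02 ± 0.16 and the transcription factor gli3.L by 1.77 ± 0.22 (adjusted p = 2.12e-06 and 9.50e-05). The signal transducer smo.L (1.03 ± 0.26, adjusted p = 0.0116) lost its call without anterior dorsal 2 (0.0541), so that 2 members remained called dorsally without that array. The target foxf1.L, a factor of visceral mesoderm, was the ventral member (-0.72 ± 0.22, adjusted p = 0.0327). It lost its call without any 1 of the anterior dorsal arrays, ventral 1 or ventral 2, within the low-ratio batch and with a pseudocount of 64 (adjusted p up to 0.114). With the replicate number as a term in the 6 arrays, 2 members were higher in ventral tissue.

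In the retinoic acid pathway, the synthesis enzyme and a receptor lay on opposite sides. The enzyme aldh1a2.L (gene ID 399389) had signals of 165, 173 and 112 in anterior dorsal and 21.8, 19.2 and 12.34 in ventral tissue (2.29 ± 0.20, limma adjusted p = 4.62e-06). The receptor rarg.S (gene ID 397983) read 116, 124 and 119 in anterior dorsal and 493, 467 and 598 in ventral tissue (-1.97 ± 0.18, adjusted p = 8.79e-06). The tissues were apart for both genes. The orphan nuclear receptors nr2f1.L and nr2f2.L, which respond to retinoic acid, differed by 2.503 ± 0.20 and 1.70 ± 0.26 (adjusted p = 2.17e-06 and 0.000478). Of 17 tested probe sets, 4 were higher in anterior dorsal and 2 in ventral tissue, and the latter count was 4 with the replicate number as a term in the 6 arrays. It was 1 without anterior dorsal 1, anterior dorsal 3 or ventral 2, when the degrading enzyme cyp26a1.L (-0.64 ± 0.20, adjusted p = 0.0339) lost its call. Its relative cyp26c1.S did not pass (-0.38, adjusted p = 0.244), but did with the replicate number as a term in the 6 arrays (0.0248).

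Among receptors of fibroblast growth factors (FGF), 3 probe sets were higher in anterior dorsal tissue and fgfr4.S did not pass (0.42, limma adjusted p = 0.218). Signals of fgfr1.L (gene ID 399444) were 618, 546 and 529 in anterior dorsal and 309, 275 and 171 in ventral tissue (1.15 ± 0.24, limma adjusted p = 0.00336), and fgfr4.L differed by 0.89 ± 0.18 (adjusted p = 0.00265). The receptor fgfr2.L (0.66 ± 0.19, adjusted p = 0.0210) lost its call within the low-ratio batch and without anterior dorsal 1 or 2 or ventral 1 (adjusted p up to 0.123). The ligand fgf20.L was higher in ventral tissue (-1.01 ± 0.18, adjusted p = 0.00120), with anterior dorsal signals near the bottom of the scale. The ligand fgf8.L did not pass (-0.37, adjusted p = 0.166), but did with the replicate number as a term in the 6 arrays (0.0322). Of 13 tested probe sets, 4 were higher in anterior dorsal and 2 in ventral tissue. The dorsal count was 2 without anterior dorsal 2 or ventral 1. The ventral count was 1 without anterior dorsal 3, when the target etv4.L (-0.59 ± 0.15, adjusted p = 0.0116) lost its call (0.0540).

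Of 21 tested axon guidance probe sets, 5 were higher in anterior dorsal and 1 in ventral tissue. With 1 probe set per gene copy, these counts were 3 and 1 of 18, with a median log2 fold change of 0.05. The dorsal members included the chemokine receptor cxcr4.L (3.15 ± 0.30), described above with the myeloid genes. Counts with the replicate number as a term in the 6 arrays were 8 and 4. The midline repellent slit1.S (gene ID 380270) had signals of 272, 242 and 214 in anterior dorsal and 48.1, 49.0 and 35.4 in ventral tissue (2.11 ± 0.20, limma adjusted p = 1.18e-05). The netrin receptor neo1.L differed by 0.90 ± 0.23 (adjusted p = 0.0116, and 0.0532 without ventral 3). The Slit receptor robo1.L was the ventral member (-0.72 ± 0.20, adjusted p = 0.0206). It lost its call without anterior dorsal 1 or 2 or ventral 1 or 2 (adjusted p up to 0.0940).

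Cranial neural crest forms at the border of the neural plate and migrates into the face and branchial arches. Of 24 tested probe sets, 5 were higher in anterior dorsal and 8 in ventral tissue (median -0.51). In the 6 arrays with the replicate number as a term, 15 were higher in ventral tissue, and 13 within the low-ratio batch. The homeobox factor alx1.L (gene ID 373650), of crest that forms the front of the skull, had signals of 177, 187 and 201 in anterior dorsal and 17.4, 18.4 and 15.2 in ventral tissue (2.63 ± 0.19, limma adjusted p = 1.15e-06). The migration factor zeb2.S differed by 1.51 ± 0.20 (adjusted p = 0.000120). Each had its dorsal arrays above all ventral ones. The crest and cartilage factor sox9.S (0.91 ± 0.25, adjusted p = 0.0203) lost its call without anterior dorsal 2 or ventral 3 (0.0873 to 0.0887). The ventral members of the list included dlx3.S and dlx3.L (-1.07 and -1.01), described above as genes of non-neural ectoderm and cement gland. They are not specific to crest, and their differences were larger than those of the next 2 genes. The homeobox factor msx2.L, also a BMP target, differed by -0.95 ± 0.17 and myc.S by -0.85 ± 0.16 (adjusted p = 0.00125 and 0.00205). Of the 6 tested placode probe sets, 2 were higher in anterior dorsal and 3 in ventral tissue. With 1 probe set per gene copy, 1 of 5 was higher in anterior dorsal tissue, the neural progenitor factor sox2.L. The ventral ones were the copies of dlx3 and tbx1.L, a pharyngeal and otic factor (-1.66 ± 0.24, adjusted p = 0.000260).

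Matrix genes were called in both directions, 7 and 7 of 33 tested probe sets, and 11 and 11 in the 6 arrays with the replicate number as a term. Of the 33, 1 passed the filter through the anterior dorsal arrays alone. Hyaluronan is a swelling polysaccharide of loose mesenchyme. The hyaluronan synthase has1.S (gene ID 379383) had signals of 60.5, 93.4 and 67.9 in anterior dorsal and 634, 639 and 903 in ventral tissue (-3.04 ± 0.37, limma adjusted p = 7.72e-05). The link protein hapln3.L (gene ID 379318), which ties proteoglycans to hyaluronan, read 137, 130.3 and 136 in anterior dorsal and 640.5, 641 and 612 in ventral tissue (-2.105 ± 0.15, adjusted p = 1.27e-06). The tissues were apart in both genes. A second synthase, has2.S (-1.35 ± 0.37, adjusted p = 0.0183), lost its call without anterior dorsal 3, ventral 2 or ventral 3 (adjusted p up to 0.0696). In anterior dorsal tissue, the matrix protein matn4.L, the laminin receptor dag1.L and the thrombospondin thbs3.L were higher (1.60 ± 0.15, 1.55 ± 0.19 and 1.43 ± 0.20; adjusted p = 7.95e-06, 7.99e-05 and 0.000188). Fibronectin, fn1.S, with signals of 2793, 3146 and 2898 in anterior dorsal and 3967, 3241 and 3310 in ventral tissue, did not pass (adjusted p = 0.258).

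Of 9 tested probe sets of matrix proteases and their inhibitors, 4 were higher in ventral and 1 in anterior dorsal tissue. Of the 9, 1 passed the filter through the ventral arrays alone, and of the 5 above it on all 9 arrays 1 was called in each direction. Collagenase mmp1.S (gene ID 495287) read 2.34, 2.22 and 4.61 in anterior dorsal and 88.6, 109 and 102 in ventral tissue (-2.60 ± 0.15, limma adjusted p = 2.82e-07). The metalloproteases mmp11.L and mmp3.L and the inhibitor timp2.L differed by -1.41 ± 0.24, -1.30 ± 0.29 and -1.07 ± 0.18 (adjusted p = 0.00109, 0.00602 and 0.000739). The single dorsal member, mmp28.L (0.69 ± 0.20, adjusted p = 0.0223), lost its call without anterior dorsal 1 or 3 or ventral 2 or 3 (adjusted p up to 0.0915), which left 0 called in limma.

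Muscle and notochord genes, included to see whether the pieces held axial tissue, were called in 3 of 14 tested probe sets in each direction, and 36 were not tested. The filter was passed through the arrays of a single tissue by 1 probe set for each tissue. The notochord factor not.L (gene ID 397703), which is also expressed in the pineal region, had signals of 70.8, 116 and 126 in anterior dorsal and 10.01, 8.33 and 9.73 in ventral tissue (2.21 ± 0.22, limma adjusted p = 1.32e-05). Its copy not.S did not pass (0.31 ± 0.33, limma adjusted p = 0.563). Muscle creatine kinase, ckm.L, was higher in ventral tissue (-1.48 ± 0.21, adjusted p = 0.000207), as was the calcium-binding protein calb1.L (-1.69 ± 0.26, adjusted p = 0.000529). The dorsal count was 1 without anterior dorsal 2 or ventral 3, where shh.L and the cartilage collagen col9a1.L (0.57 ± 0.17, adjusted p = 0.0264) lost their calls (col9a1.L up to 0.109), and 5 in the 6 arrays with the replicate number as a term.

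Primary mouth tissue lay between both pieces for most called genes. Since the calls used these arrays, its position is given as a description with no test. Its mean lay between the others in 907 of the 1054 probe sets higher in anterior dorsal tissue and in 964 of the 1415 higher in ventral tissue. On a scale from 0% at the ventral mean to 100% at the anterior dorsal mean, the median position was 41.2% in the first group and 72.3% in the second. It was below both tissues in 330 and above both in 121 of the probe sets higher in ventral tissue. Of the leading genes, the hypothalamic six6.L was nearly as high in primary mouth as in anterior dorsal tissue (mean signals of 389 and 496), and hand1.L was as low (1.82 and 1.53).

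Xenopus laevis carries related copies of many genes from an ancient genome doubling, marked .L and .S. In 691 pairs with both copies tested, the log2 fold changes correlated across genes with r = 0.73, a description, since genes are not independent replicates and probes of 1 copy may detect the other. Both copies were called in 116 pairs (16.8%). They moved in the same direction in 109 of these, with 39 pairs higher in anterior dorsal and 70 in ventral tissue. In the other 7 pairs they had opposite directions. The largest such difference was in the cornified envelope gene cnfn.1, where cnfn.1.S had mean signals of 40.1 ± 13.8 in anterior dorsal and 1226 ± 420.3 in ventral tissue and cnfn.1.L of 643 ± 228 in anterior dorsal and 234 ± 60.9 in ventral tissue (-4.45 ± 0.25 and 1.36 ± 0.37; limma adjusted p = 2.82e-07 and 0.0167). A single copy was called in 130 pairs, and in 106 of them the other copy had the same sign. The genes pax3, xepsin and cxcr4, described above, belong to these 130 pairs.

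**Figure D5:**
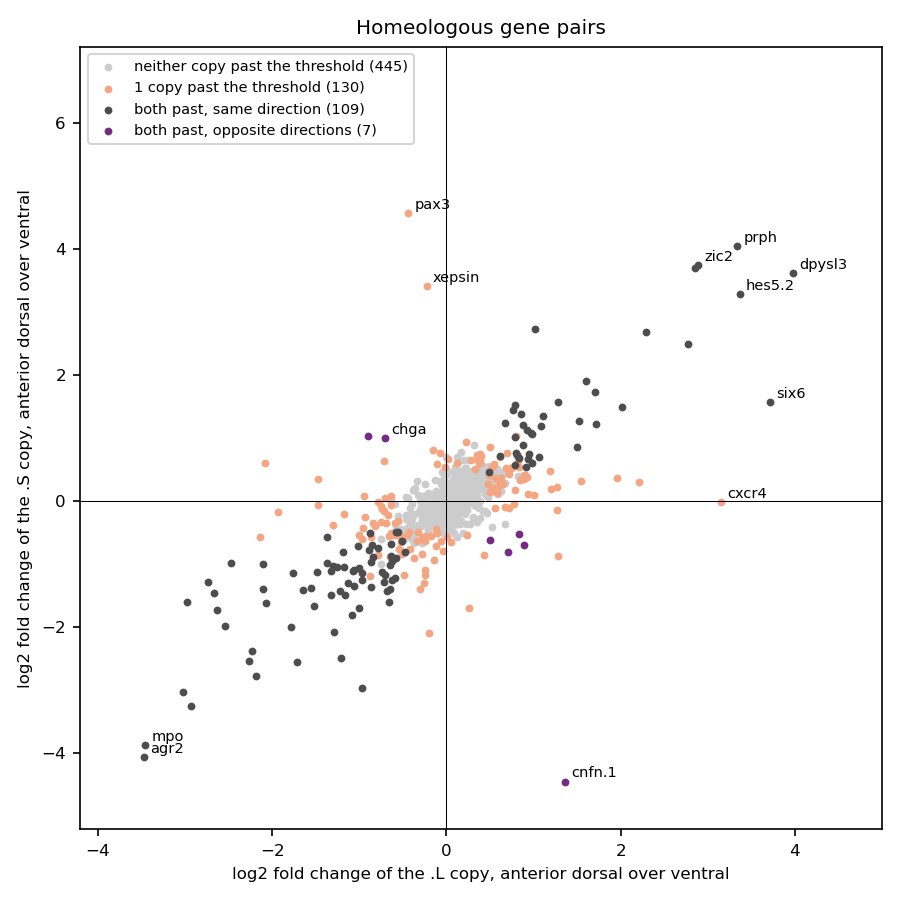
Log2 fold change of the .S copy (vertical axis) against that of the .L copy (horizontal axis) for 691 gene pairs with both copies tested. Grey points are the 445 pairs with no copy called, orange points the 130 with 1 copy called, dark points the 109 with both called in the same direction and purple points the 7 called in opposite directions, with cnfn.1 the farthest from the rest.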

How the data were processed

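Total RNA from 3 anterior dorsal, 3 primary mouth and 3 ventral cement gland samples was hybridised to Affymetrix arrays of Xenopus laevis. The authors deposited 1 linear signal intensity per probe set and array, and the submitters' processing notes name MAS5. Which version and settings were used is not stated there. No rescaling was applied, no detection calls were used, a low signal is not read as absence, and the number of arrays limits the precision.

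Control probe sets (120) were left out. Of the rest, 9304 carried 1 gene symbol, 195 several and 5992 none in the platform annotation. A gene ID in the RefSeq table of assembly Xenopus_laevis_v10.1 matched 9227 of the 9304 and updated 2 symbols; no coordinates were taken from it. Signals were analysed as log2(signal + 16), which understates the change of low genes. A mean per tissue was fitted to 9 arrays (limma 3.58.1 under R 4.3.3, empirical Bayes with a variance trend, 6 residual degrees of freedom), the contrast was two-sided, and p-values were adjusted by Benjamini-Hochberg over 10011 probe sets at a threshold of 0.05. The procedure was tested on simulated data.

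Deviations from the tissue means correlated between same-numbered anterior dorsal and ventral arrays (0.564, 0.400 and 0.432 for numbers 1, 2 and 3), against -0.410 to 0.065 for other pairings. Deviations within a tissue cancel out, so high values for same numbers force low ones for other pairings, and this contrast is no independent evidence. The same numbers were taken to pair the 2 tissues, from the data and not from a label. Both arrays of number 1 also share a batch, which may contribute to their correlation. Adjusted p-values with the replicate number as a term rest on this pairing, read from the same signals. Primary mouth arrays paired by number only in part. Primary mouth 1a correlated at 0.351 and 0.247 with anterior dorsal 1 and ventral 1. Primary mouth 3 correlated at 0.481 and 0.4875 with anterior dorsal 3 and ventral 3. Primary mouth 2 correlated at -0.184 and -0.118 with number 2 of the other tissues and at 0.354 and 0.367 with number 1. Because of primary mouth 2, blocked values in the text are from the 6 arrays. The 9-array block called 3333 probe sets and the 6-array block 4878. In the 9-array block, primary mouth 1a was counted as number 1, though its letter is not explained. Other alternatives were the pseudocount, filter, normalization, arrays in the fit, batch and variance trend, and leaving out each array.

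The 28 gene lists and the genes to be named were chosen with earlier results of these data known. Genes named were, per direction, the 20 with the largest change whose arrays did not overlap, up to 4 called members per list and direction and up to 2 uncalled ones, and 22 fixed genes; a gene with several tested probe sets was represented by the brightest. Of the fixed genes, chrd, foxj1, bmp7 and krt18 matched no probe set under exactly these symbols and gave no result as fixed genes. The genes dll1.L, notch1.S, msi1.S, chga.S, tnni3.L, myl4.L, bmp7.1.L, smad7.L, smad6.L, ventx2.1.S, cnfn.1.L, xepsin.L, not.S and those of the closing section were added after their values were seen. Of 736 symbols with several tested probe sets, 2 had probe sets called in opposite directions and 125 had some called and some not.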

Additional observations from a re-analysis of the deposited data

How the results depend on the processing

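Counts of called probe sets moved by over 1.5 times in 2 settings. With the replicate number as a term in the 6 arrays (chosen after seeing the data), 4878 were called, 2514 higher in anterior dorsal and 2364 in ventral tissue. With the batch as a term, 1775 were higher in anterior dorsal tissue. In the other settings with all arrays the counts stayed within 1.5 times. Without 1 array, totals were 1858 to 2711, with 744 to 1202 higher in anterior dorsal and 1097 to 1509 in ventral tissue. All 2469 calls remained with the replicate number (6 or 9 arrays) or the batch as a term. These terms leave the log2 fold changes of this contrast unchanged, so direction could not change with them. When 1 array was left out, 1838 to 2463 of the calls remained in their direction. Of 167 called named genes, 17 lost the call in at least 1 of 21 alternatives, all of them when 1 array was left out, none with the batch as a term, and none reversed. Of 51 uncalled named genes, 23 gained a call in at least 1 alternative, 22 of them with the replicate number as a term in the 6 arrays, which changed no other named gene's call. The stricter filter, which tested fewer probe sets, lowered 23 list counts by over 1.5 times.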

Other observations

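Transport and junction genes were described after the other lists, with gene families taken by symbol. Over all tested probe sets, 10.5% were higher in anterior dorsal and 14.1% in ventral tissue, and the counts of this section are to be read against these shares. Claudins, the sealing proteins of tight junctions, were higher in ventral tissue in 8 of 12 tested probe sets and in anterior dorsal tissue in 0 (limma; 10 in either direction at an unadjusted p under 0.05). The largest difference was in cldn6.1.L (37.8, 20.1 and 33.4 in anterior dorsal and 116, 156 and 149 in ventral tissue; -1.76 ± 0.19, adjusted p = 3.01e-05). Solute carriers were higher in ventral tissue in 24 of 95 tested probe sets and in anterior dorsal tissue in 5. On the dorsal side, slc7a5.L, a carrier of large amino acids, had signals of 126, 183 and 101 in anterior dorsal and 36.5, 34.0 and 25.2 in ventral tissue (1.64 ± 0.21, adjusted p = 0.000107). Kinesins, motors of the spindle and of axonal transport, were higher in anterior dorsal tissue in 6 of 15 and in ventral tissue in 0 (limma; 8 in either direction at an unadjusted p under 0.05).

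Glycolysis genes were higher in ventral tissue in 8 of 22 tested probe sets and in anterior dorsal tissue in 2. Hexokinase 2, hk2.L, differed by -2.08 ± 0.25 (limma adjusted p = 7.56e-05). The glucose phosphate isomerase gpi.S and the lactate dehydrogenase ldhb.S differed by -1.81 ± 0.20 and -1.62 ± 0.19 (adjusted p = 2.88e-05 and 5.61e-05). Pyruvate kinase went both ways by copy, with pkm.L at 0.83 ± 0.21 and pkm.S at -0.53 ± 0.17 (adjusted p = 0.0112 and 0.0423).

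Few probe sets of housekeeping families were called, where 24.7% of all tested probe sets were. Of 83 tested probe sets of cytosolic ribosomal proteins, 0 were called in limma (1 at an unadjusted p under 0.05), and their log2 fold changes ran from -0.28 to 0.38. Of 39 for mitochondrial ribosomal proteins 0 were called (2 unadjusted), of 71 for oxidative phosphorylation 3 were higher in anterior dorsal and 2 in ventral tissue, with 8 at an unadjusted p under 0.05. Of 54 for proteasome subunits 4 and 1 were called (16 unadjusted), with a median log2 fold change of 0.30. Splicing factors had 7 and 1 of 99 (24 unadjusted), with a median of 0.29.

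Among the called probe sets left without a gene name here, the largest log2 fold changes were 5.02 ± 0.36 on the dorsal side and -5.25 ± 0.30 on the ventral side (limma adjusted p = 1.03e-06 and 2.83e-07). Besides cnfn.1 and chga, the gene pairs whose copies were called in opposite directions were cd37, cd82, pkm, smtn and tmem56.2. For cd37, a tetraspanin of leukocytes, cd37.L had mean signals of 26.3 in anterior dorsal and 63.3 in ventral tissue and cd37.S of 90.1 and 36.4.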
